A study of Homo sapiens with 9 samples.

Results

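The mRNAs of the cytosolic ribosomal proteins were examined in PC-3 cells, a cell line from a bone metastasis of a prostate cancer. The members were the protein-coding genes whose symbols name a large-subunit (RPL), small-subunit (RPS), stalk (RPLP0 to RPLP2) or RPSA protein, paralogs ending in L included. There were 81 among the 60617 gene identifiers of the count tables, with 32 in the 40S and 49 in the 60S subunit. The 9 RNA-seq libraries were 3 controls (vehicle only), 3 of cells treated with 1 µM decitabine and 3 of cells treated with 1 µM decitabine and 200 µM S-adenosylmethionine (SAM), called the combination treatment. All groups were PC-3 cells after 5 days. SAM without decitabine was not analysed here, so an effect of SAM was seen only on top of decitabine. The labels do not say whether the 3 libraries of a group came from separate cultures, and the p-values then measure the spread between these libraries, which may be technical.

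A ribosome is built from ribosomal RNA and a full set of ribosomal proteins, which are made in the cytosol and assembled with the RNA in the nucleolus. The genes are scattered over the genome, and their mRNAs start with a run of pyrimidines at which translation is controlled by growth signals through mTOR. Their output is known to follow the growth rate of a cell. A few members have a close paralog used in particular tissues. RPL10L, an intronless copy of the X-linked RPL10, is known from the testis, where it takes over from RPL10 during male meiosis, and RPL3L is known from heart and skeletal muscle. RPL39L is known from the testis and some cancers, and RPS27L is a known target of p53. Decitabine is a cytidine analog that traps DNA methyltransferases and leads to loss of DNA methylation at CpG sites, and SAM is the methyl donor of these enzymes.

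The promoters of RPL10L and RPL10 are shown because these related genes moved in opposite directions. The sequences are from RefSeq (GRCh38.p14), run from 250 bases before to 30 bases after the transcription start, and have their CpG dinucleotides in capitals. The RPL10L promoter lay at chr14:46651752-46652031 on the minus strand and held 23 CpG dinucleotides. The RPL10 promoter, at the start of the canonical transcript, lay at chrX:154398127-154398406 on the plus strand and held 30. DNA methylation of these promoters was not measured here.
RPL10L: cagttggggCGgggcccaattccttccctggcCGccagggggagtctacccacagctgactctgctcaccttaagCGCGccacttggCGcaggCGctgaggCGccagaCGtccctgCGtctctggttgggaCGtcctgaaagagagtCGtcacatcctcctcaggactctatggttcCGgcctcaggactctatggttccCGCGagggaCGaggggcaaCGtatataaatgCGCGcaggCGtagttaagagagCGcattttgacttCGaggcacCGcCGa
RPL10: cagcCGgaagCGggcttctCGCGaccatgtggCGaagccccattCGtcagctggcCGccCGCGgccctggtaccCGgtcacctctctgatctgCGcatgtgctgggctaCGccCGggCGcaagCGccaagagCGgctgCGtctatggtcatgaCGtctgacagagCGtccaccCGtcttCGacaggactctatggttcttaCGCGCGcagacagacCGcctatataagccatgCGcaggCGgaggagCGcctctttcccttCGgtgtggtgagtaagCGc
The longest run that both promoters share, caggactctatggttc with 16 bases, occurred once in the RPL10 promoter and at 2 places in the RPL10L promoter. The percentage of G and C was 61.4% in the RPL10L and 64.3% in the RPL10 sequence.

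The start sites of 5 further members are shown because these members mark the range of the response: RPL10A and RPL22 were among the largest falls, RPSA fell and was in part higher again with SAM, and RPLP2 and RPS27L did not pass the test under decitabine. Each window runs from 30 bases before to 30 bases after the start, and capitals mark the exact motifs CTTTCC or CTTTTC. These are pyrimidine runs of the kind found where ribosomal protein mRNAs begin. Other pyrimidine runs are not marked, such as cctttct at the start of RPL22. The windows lay at chr6:35468371-35468430 (RPL10A, plus strand), chr1:6199566-6199625 (RPL22, minus strand), chr3:39406690-39406749 (RPSA, plus strand), chr11:809937-809996 (RPLP2, plus strand) and chr15:63157448-63157507 (RPS27L, minus strand).
RPL10A: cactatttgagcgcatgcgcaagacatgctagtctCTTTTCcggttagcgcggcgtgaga
RPL22: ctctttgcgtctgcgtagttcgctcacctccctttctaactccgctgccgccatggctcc
RPSA: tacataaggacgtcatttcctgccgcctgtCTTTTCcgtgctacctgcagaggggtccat
RPLP2: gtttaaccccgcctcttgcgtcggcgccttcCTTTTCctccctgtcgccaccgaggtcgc
RPS27L: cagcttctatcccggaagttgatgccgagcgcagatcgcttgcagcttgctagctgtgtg
Promoter entries were found for 64 of the 81 members. Of these, 33 (51.6%) had a CTTTCC or CTTTTC on the gene's strand in a window of 60 bases around a listed start, against 1741 of all 27305 genes of the RefSeq table (6.38%). The motifs can share a single C where one follows the other. The median log2 fold change under decitabine was -0.69 over the 33 members with a motif and -0.74 over the 30 others that were tested, RPL10L left out. With the combination treatment these medians were -0.52 and -0.50. Members without an exact motif can still start with another pyrimidine run. The medians therefore do not compare members with and without such a start.

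The libraries held between 21934307 and 22489684 estimated counts, so their depth was nearly equal. TMM scaling factors, which adjust for the makeup of a library, were 0.895 to 0.902 in the controls and 1.03 to 1.08 in the treated libraries. Of 5 epithelial and other markers known from PC-3 cells (KRT8, KRT18, KRT19, EPCAM and VIM), all were detected, with a summed count of 43057 to 45309 per control library, 32530 to 36141 under decitabine and 27827 to 32134 under the combination treatment. In both comparisons with the controls 3 of them were lower, VIM by the most (log2 fold change -1.10 and -1.31), and KRT8 was higher (1.14 and 0.80). KLK3, a prostate marker that PC-3 cells are known to lack, was at 0 counts in all 9 libraries. The summed count of 3 leukocyte markers (PTPRC, CD3E and CD14) was 4 to 6 in the controls, 36.0 to 46.0 under decitabine and 29.0 to 41.1 under the combination treatment, and CD3E was at 0 in the controls. The part of these markers in the results was not tested. In bulk RNA, fewer cells of a type and less RNA per cell cannot be told apart.

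The first comparison asked how decitabine alone acted on the ribosomal protein mRNAs. Nearly the whole family was downregulated. Of the 81 members, 80 passed the filter on low counts (RPL3L did not), and 77 of these were downregulated and 1, RPL10L, was upregulated (edgeR's quasi-likelihood test, Benjamini-Hochberg adjusted p under 0.05). RPL10L, at 0 counts in the controls, passed this filter only through the treated libraries. Among all 18532 genes tested, 32.5% were downregulated and 36.3% upregulated. The median log2 fold change of the members was -0.71, or 61.2% of the control level, against 0.035 over all genes. In 77 of the 80 members tested all decitabine libraries lay below all controls, against 34.8% of all genes tested. The 40S members had 31 of 32 downregulated with a median of -0.75, and the 60S members had 46 of 48 with a median of -0.67. With library size as the only scaling, the median of all genes shifted by 0.25 to 0.28 and that of the members was -0.46. The members lay -0.74 from all genes under both scalings. A scaling factor moves all genes of a library alike, so this gap could hardly change and is no separate check. With library size alone, 47.7% of all genes were upregulated and 20.2% downregulated, and 66 members were downregulated and 2 upregulated.

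**Figure D1:**
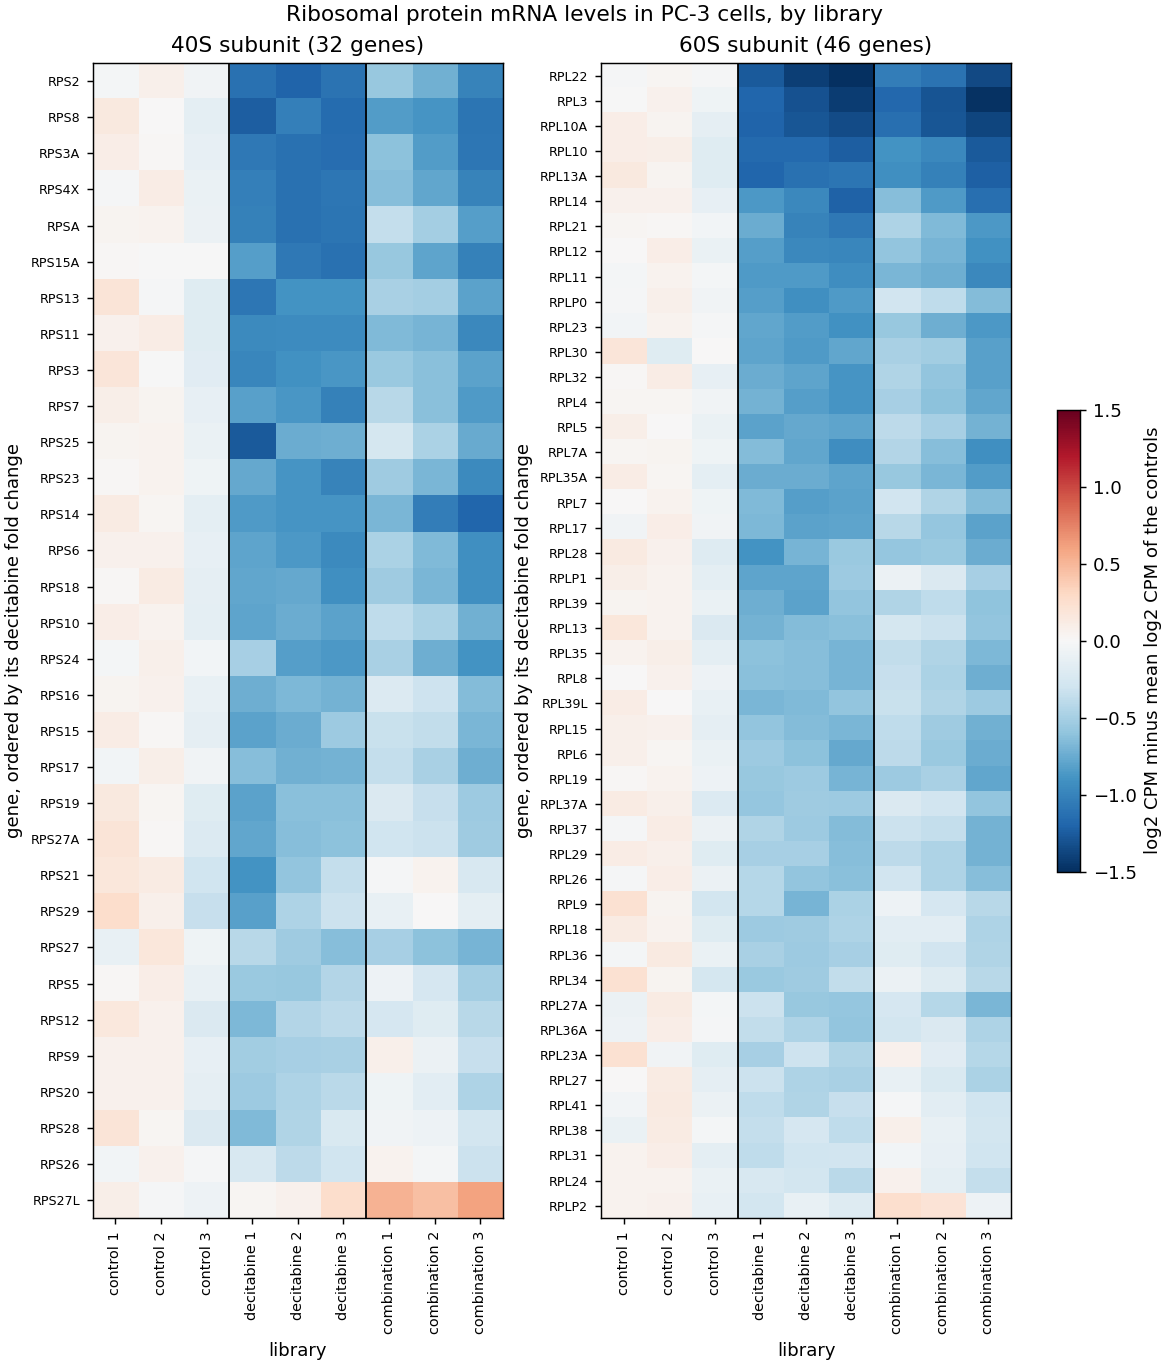
Heatmap of 78 ribosomal protein genes (rows, by subunit, with RPL10L, RPL3L and 1 other member left out) in the 9 libraries (columns). Colour gives the log2 CPM of a library minus the mean log2 CPM of the 3 controls. The decitabine columns are blue for nearly every gene, the combination columns are paler, and combination replicate 3 is the darkest of the combination columns for most genes.

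The largest fall was that of RPL22, a 60S protein that also binds other RNAs and is a known tumor suppressor in T-cell leukemia. Its levels in CPM (counts scaled to a common library size, with TMM factors) were 696, 718 and 697 in the controls, 293, 263 and 240 under decitabine and 342, 325 and 275 under the combination treatment. Both treated groups lay below all controls, and RPL22 fell to 37.7% of the control level under decitabine (log2 fold change -1.41 ± 0.09 SE, adjusted p = 1.24e-08). RPL3, one of the first proteins to join the 60S particle and close to the peptidyl transferase center, had 1475, 1546 and 1415 CPM in the controls and 648, 597 and 551 CPM under decitabine. Its fall was -1.30 ± 0.09 on the log2 scale (adjusted p = 1.94e-08). RPL10A, part of the L1 stalk at the exit site for tRNA, had 497, 478 and 424 CPM in the controls and 202, 191 and 184 CPM under decitabine. RPL10A fell by 1.28 ± 0.08 (SE, log2; adjusted p = 1.24e-08), to 41.3% of the control level. RPL10, which joins the 60S subunit last and lies at its tRNA binding sites, had 2159, 2140 and 1785 CPM in the controls and 904, 900 and 857 CPM under decitabine. It fell by 1.19 ± 0.10 (SE, log2; adjusted p = 1.37e-07). For these 4 genes, the highest decitabine library lay below the lowest control.

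The stalk proteins, which recruit the elongation factors to the ribosome, had log2 fold changes from -0.86 (RPLP0) to -0.20 (RPLP2) under decitabine, and the differences between them were not tested. RPLP0, the base of the stalk, had 2982, 3181 and 2919 CPM in the controls and 1709, 1599 and 1681 CPM under decitabine. RPLP0 fell by 0.86 ± 0.09 (SE, log2; adjusted p = 1.28e-06). RPLP1 had 702, 684 and 593 CPM in the controls and 379, 381 and 449 CPM under decitabine, a fall of 0.71 ± 0.11 (SE, log2; adjusted p = 4.55e-05). RPLP2, the partner of RPLP1 in the stalk dimers, had 576, 581 and 517 CPM in the controls and 460, 514 and 486 CPM under decitabine. These groups did not overlap, but the log2 fold change of RPLP2 of -0.20 ± 0.09 (SE) missed the threshold (adjusted p = 0.0629) and was 0.049 with library size as the only scaling. RPLP2 and RPS27L were the 2 tested members that did not pass.

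RPL5 and RPL11, which form a particle with 5S RNA and hold back MDM2 when ribosome assembly fails, fell by 0.79 ± 0.09 and 0.88 ± 0.08 (SE, log2; adjusted p = 1.48e-06 and 3.17e-07). RPL5 had 887, 833 and 779 CPM in the controls and 475, 488 and 479 CPM under decitabine. RPL11 had 612, 649 and 610 CPM against 347, 345 and 327 CPM. RPSA, a 40S protein also known as the laminin receptor, had 1870, 1883 and 1718 CPM in the controls and 905, 836 and 850 CPM under decitabine, a fall to 47.4% (log2 fold change -1.08 ± 0.10 SE, adjusted p = 4.34e-07). RPS6, the 40S protein phosphorylated by S6 kinase, had 1512, 1511 and 1326 CPM in the controls and 834, 797 and 747 CPM under decitabine (log2 fold change -0.87 ± 0.10 SE, adjusted p = 3.71e-06). RPS4X, which is encoded on the X chromosome and escapes X inactivation, had 987, 1077 and 931 CPM against 491, 458 and 469 CPM (log2 fold change -1.08 ± 0.09 SE, adjusted p = 1.37e-07). RPS27A, made as a fusion with ubiquitin, had 696, 619 and 529 CPM against 357, 391 and 399 CPM (log2 fold change -0.68 ± 0.10 SE, adjusted p = 2.53e-05). In all 6 genes the lowest control lay above the highest decitabine library. All 4 members on the X chromosome (RPL10, RPL39, RPL36A and RPS4X) were downregulated, with a median log2 fold change of -0.89.

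The second comparison set the combination treatment against the same controls. Of the 80 members tested, 64 were downregulated and 2, RPL10L and RPS27L, were upregulated, against 31.3% and 35.9% of all genes. The median log2 fold change of the members was -0.52 (69.8% of the control level), and that of all genes 0.048. In 59 of the 80 members tested all combination libraries lay below all controls, against 33.6% of all genes tested. The 40S members had 25 of 32 and the 60S members 39 of 48 downregulated. The median over the members was -0.30 with library size as the only scaling. That scaling gave 50 members downregulated and 3 upregulated, against 20.8% and 46.9% of all genes. It gave a positive sign to 10 members that are negative in the TMM-scaled fit, none of them among the 64. This comparison shares its controls with the first one.

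RPL3 showed the largest fall under the combination treatment, with 654, 600 and 529 CPM and a log2 fold change of -1.31 ± 0.09 (SE, adjusted p = 1.78e-08). RPL10A followed with 213, 191 and 180 CPM (-1.26 ± 0.08 SE, adjusted p = 1.33e-08) and RPL22 fell by 1.16 ± 0.09 (SE, log2; adjusted p = 7.39e-08). RPL13A, a 60S protein that can leave the ribosome to silence inflammatory mRNAs, had 2287, 2133 and 1826 CPM in the controls and 1094, 1027 and 886 CPM under the combination treatment (-1.05 ± 0.10 SE, adjusted p = 3.18e-07). These 4 genes were at or under 48.1% of the control level. RPL5 (636, 591 and 510 CPM), RPL11 (388, 376 and 318 CPM), RPS6 (1043, 916 and 765 CPM) and RPS4X (639, 580 and 500 CPM) were downregulated as well, with adjusted p of 7.65e-05, 9.43e-07, 4.33e-05 and 2.63e-06. The 14 members that did not pass were RPLP2, RPL9, RPL23A, RPL24, RPL31, RPL34, RPL38, RPL41, RPS9, RPS20, RPS21, RPS26, RPS28 and RPS29. RPL41, the smallest ribosomal protein, was one of them, with 1384, 1556 and 1332 CPM in the controls and 1399, 1277 and 1154 CPM in the combination libraries. The RPLP1 call (log2 fold change -0.26 ± 0.11 SE, adjusted p = 0.043, 618, 568 and 465 CPM) was lost under 9 of the 18 other settings tried, and its groups overlapped.

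The third comparison asked whether the combination treatment differed from decitabine alone. Of the 80 members, 14 were higher under the combination treatment and none was lower (edgeR), against 7.67% and 8.02% of all genes. At an unadjusted p under 0.05 there were 41 members in all, against 5836 of all 18532 genes. DESeq2 as well as limma also gave none that was lower. The median log2 fold change was 0.21 over the members and 0.0021 over all genes, and 77 of the 80 fitted values were above 0. Among 1059 protein-coding genes of up to 453 coding bases, the median length of the members, 179 were higher and 37 lower. Their median log2 fold change was 0.13. The 40S members had 8 of 32 and the 60S members 6 of 48 higher. This count depended on single libraries. It was 2 without decitabine replicate 2 or combination replicate 2, 3 without combination replicate 1, 7 without control replicate 2 or decitabine replicate 1, and 52 without combination replicate 3. In combination replicate 3, 78 of 79 members (RPL10L left out) had the lowest value of the 3 combination libraries, and the median over the members was -0.72 on the log2 scale relative to the control mean. The other combination libraries had -0.38 and -0.48, and the decitabine libraries had -0.73, -0.74 and -0.71. Control replicate 3 was likewise the lowest control for 70 of the 79 members. Its median was -0.12, against 0.052 and 0.059 in control replicates 1 and 2. The replicate number as a block gave 24 members. The shares of all genes called in these other fits are not given here, so a general change in calls was not told apart.

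RPSA showed the clearest difference between the treatments, with 1417, 1284 and 1024 CPM in the combination libraries against 905, 836 and 850 CPM under decitabine. All combination libraries lay above all decitabine libraries and below all controls. The log2 fold change of RPSA between the treatments was 0.52 ± 0.10 (SE, adjusted p = 0.00514). RPLP0 had 2479, 2333 and 1927 CPM in the combination libraries, all above decitabine (0.43 ± 0.09 SE, adjusted p = 0.00739). RPLP1 was higher by 0.45 ± 0.11 (SE, log2; adjusted p = 0.0141) and RPLP2, with 662, 642 and 531 CPM, by 0.33 ± 0.09 (SE, log2; adjusted p = 0.025), so that all 3 stalk proteins were among the 14. RPS21, a small 40S protein that sits next to RPSA, had 236, 292 and 343 CPM under decitabine and 435, 455 and 373 CPM under the combination treatment (0.54 ± 0.16 SE, adjusted p = 0.0428). The spread of RPS21 within the groups was wide, and its call was lost under 7 of the 18 other settings. RPS27L, RPS2, RPS9, RPS13, RPS16, RPS19, RPL5 and RPL7 were called as well. RPL3 (log2 fold change -0.010 ± 0.09 SE, adjusted p = 0.954) and RPL10A (0.014 ± 0.08 SE, adjusted p = 0.928), among the largest falls with either treatment, showed no difference past the threshold.

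The share of all counts that came from the members gave the same order without any scaling factor. The 81 genes took 5.95%, 6.01% and 5.38% of the counts in the controls, 4.06%, 3.94% and 3.98% under decitabine and 4.96%, 4.59% and 4.03% under the combination treatment. The means were 5.78% ± 0.347 (SD, n = 3), 3.99% ± 0.0618 and 4.53% ± 0.470. All treated libraries lay below all controls, and combination replicate 3 lay among the decitabine libraries. Mitochondrially encoded genes, which count toward the same total, took 4.31% ± 0.481 (SD, n = 3) in the controls, 1.91% ± 0.335 under decitabine and 3.22% ± 0.709 under the combination treatment. With these left out of the total, the members took 6.04%, 4.07% and 4.68%.

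**Figure D2:**
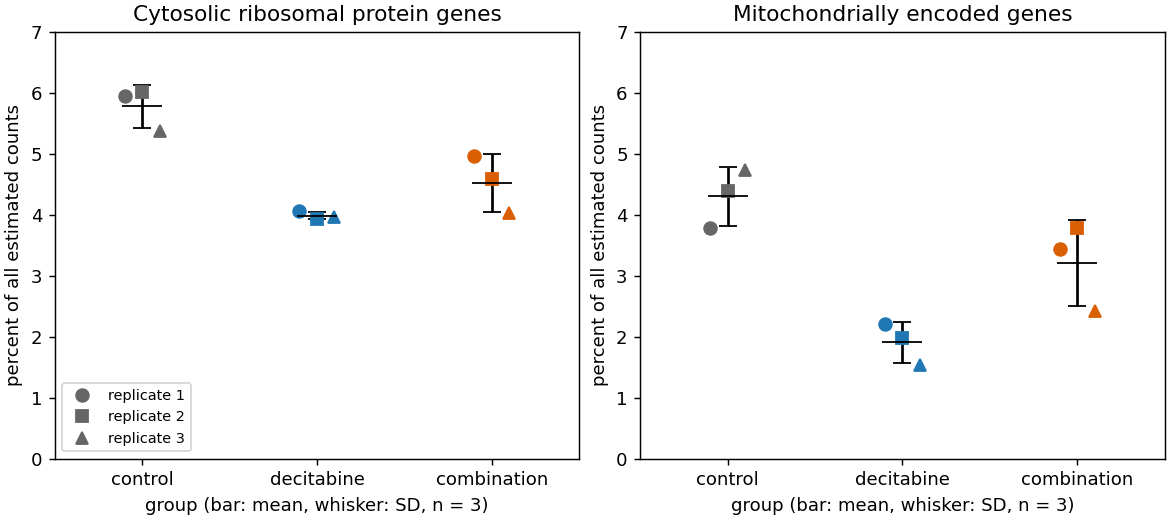
Percent of all estimated counts (vertical axis) from the 81 cytosolic ribosomal protein genes (left) and from mitochondrially encoded genes (right), by group. Symbols are single libraries, bars the mean and whiskers the SD of 3 libraries. In the left panel the controls sit between 5.38% and 6.01%, above the 6 treated libraries at 3.94% to 4.96%.

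The paralogs with restricted expression were then set beside the genes they resemble. RPL10L, a single-exon gene on chromosome 14 (46651010 to 46651781, minus strand, GRCh38), was not detected in any control, with 0 counts in each of the 3. It had 337, 331 and 426 counts under decitabine and 393, 337 and 381 under the combination treatment, which is 14.2, 14.0 and 18.0 CPM and 17.1, 14.8 and 16.2 CPM. With 3 counts over the 3 controls as the floor, RPL10L was at least 310-fold higher under decitabine (adjusted p = 2.25e-10) and at least 323-fold higher under the combination treatment (adjusted p = 2.09e-10). RPL10L passed the filter on low counts only through the treated libraries, so these p-values add no support beyond the counts. The treatments overlapped and showed no difference past the threshold (log2 fold change 0.059 ± 0.13 SE, adjusted p = 0.788). RPL10 on the X chromosome (154389955 to 154409168, plus strand) fell in the same libraries. Per kilobase of the canonical transcript, RPL10L made up 4.66% ± 0.793 (SD, n = 3) of the pair under decitabine and 4.40% ± 0.643 under the combination treatment. With merged exon lengths, which are longer for RPL10, the shares were 9.40% and 8.91%. The coding sequences of both genes have 642 bases, of which 89.3% are the same, and the proteins differ at 9 of 214 residues. The longest identical run was 50 bases, and 96.4% of the 31-base words of the RPL10L transcript occur in no other gene.

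RPS27L on chromosome 15 (63125872 to 63158021, minus strand) had 41.8, 38.9 and 37.4 CPM in the controls, 40, 41.1 and 47.1 CPM under decitabine and 56.3, 53.8 and 59.6 CPM under the combination treatment. The decitabine libraries overlapped the controls (log2 fold change 0.12 ± 0.08 SE, adjusted p = 0.223). With the combination treatment RPS27L was upregulated by 0.52 ± 0.08 (SE, log2; adjusted p = 6.8e-05) over the controls and by 0.40 ± 0.08 (SE, log2; adjusted p = 0.00659) over decitabine, and its 3 libraries lay above the other 6. RPS27, its counterpart in the 40S subunit, fell in both comparisons, with 464, 563 and 477 CPM in the controls, 374, 344 and 320 CPM under decitabine and 355, 325 and 309 CPM under the combination treatment. Its log2 fold changes were -0.53 ± 0.09 (SE, adjusted p = 0.000106) and -0.61 ± 0.09 (SE, adjusted p = 3.64e-05). The proteins differ at 3 of 84 residues, while 77.8% of the coding bases are the same.

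RPL39L followed the direction of its counterpart. It had 47.6, 44 and 40.5 CPM in the controls, 27.3, 27.8 and 29.1 CPM under decitabine and 34.9, 32.2 and 30.2 CPM under the combination treatment, 3 groups with no overlap. The log2 fold changes were -0.65 ± 0.09 (SE, adjusted p = 1.03e-05) and -0.44 ± 0.08 (SE, adjusted p = 0.000346) against the controls and 0.21 ± 0.09 (SE, adjusted p = 0.112) between the treatments. RPL39 fell by 0.71 ± 0.08 and by 0.47 ± 0.08 (SE, log2; adjusted p = 3.66e-06 and 0.000164). The share of RPL39L in the pair, per kilobase of the canonical transcripts, was 3.24% ± 0.138 (SD, n = 3) in the controls, 3.37% ± 0.167 under decitabine and 3.31% ± 0.210 under the combination treatment. RPL3L stayed at the edge of detection and was not tested. It had 0, 1 and 1 counts in the controls, 4, 1 and 3 under decitabine and 4, 8 and 3 under the combination treatment. The ratio to the controls was 3.40 (95% exact interval 0.679 to 32.9) under decitabine and 6.55 (1.52 to 59.0) under the combination treatment, and these intervals cover counting error only.

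**Figure D3:**
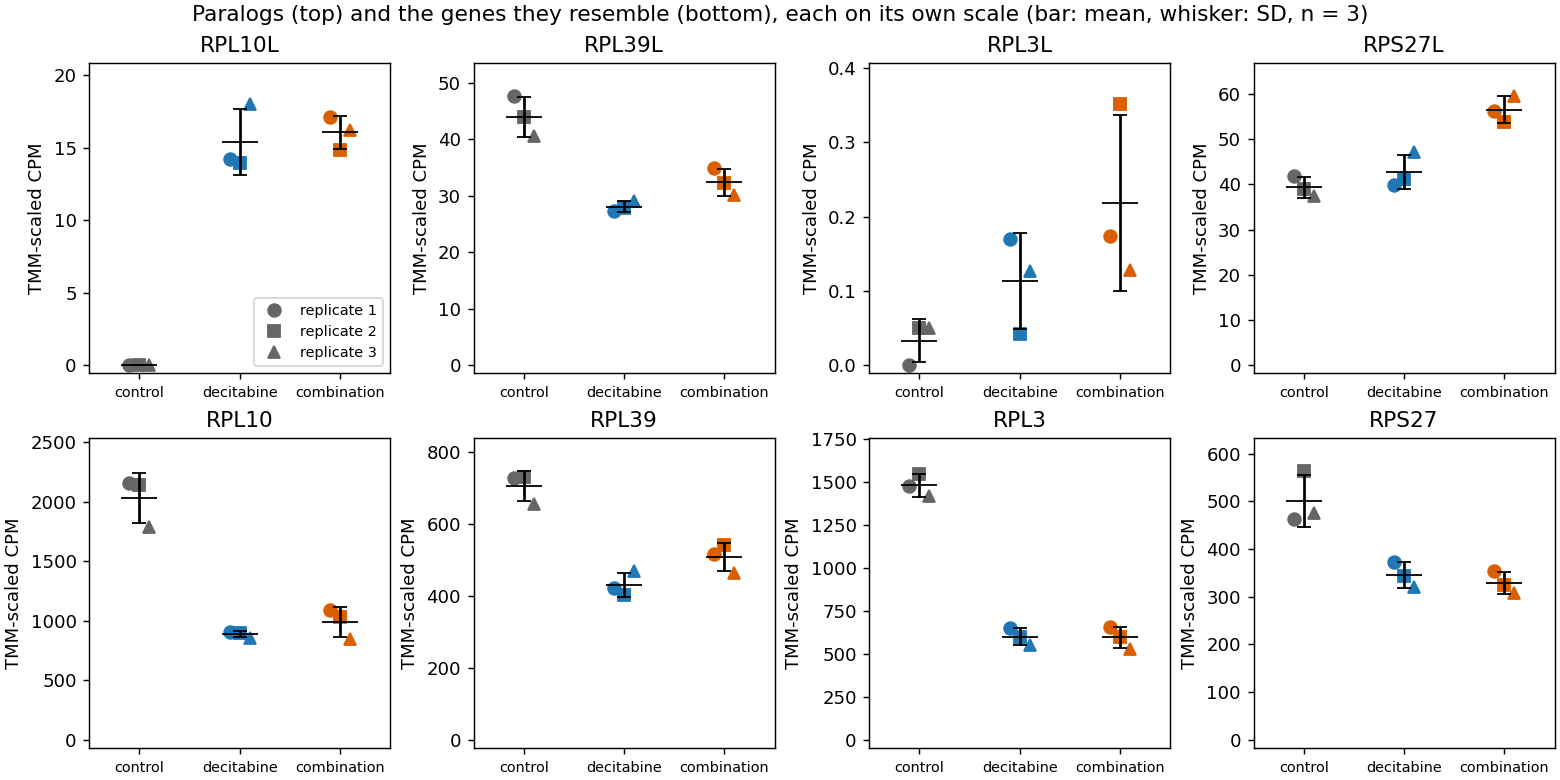
TMM-scaled CPM (vertical axes, each panel on its own scale) of 4 paralogs (top) and the genes they resemble (bottom) in the 3 groups. Symbols are single libraries, bars the mean and whiskers the SD of 3 libraries. RPL10L is at 0 in the 3 controls and at 14.0 to 18.0 in the treated libraries, RPS27L is highest in the 3 combination libraries, and the 4 genes in the bottom row are lower in all treated libraries than in the controls.

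The size of the fall varied over the family with the length of the coding sequence, which ranged from 75 bases in RPL41 to 1281 in RPL4. Over 79 members (RPL10L left out), Spearman's rho between coding length and log2 fold change was -0.53 under decitabine and -0.49 under the combination treatment (Pearson's r -0.50 and -0.46). It was -0.049 between the treatments. These are correlations across genes of the same libraries, and genes are not independent replicates. Over all 14599 protein-coding genes tested, rho was -0.0036 under decitabine, -0.07 under the combination treatment and -0.19 between the treatments. The 40 members of up to 453 coding bases had a median log2 fold change of -0.63 under decitabine and the 39 longer ones -0.82. With the combination treatment these medians were -0.44 and -0.62, and 29 of the 40 and 35 of the 39 were downregulated. Between the treatments they were 0.21 and 0.20, and 7 of the 40 and 7 of the 39 were higher. The part of length in that rise was not tested. RPL22, with 384 coding bases and the largest fall under decitabine, stood apart from this trend. G and C percent of the coding sequence gave a rho of 0.014 and the control level a rho of -0.44 under decitabine. The percentage of 31-base words found in no other gene, which bears on how well reads can be assigned, gave a rho of 0.20. This percentage had a median of 53.0% over the 81 members and was below 50% for 35 of them, RPSA (18.4%) and RPL10 (20.4%) included. Reads of these genes could therefore be shared with other genes. Whether these were pseudogenes or other overlapping genes was not told apart.

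**Figure D4:**
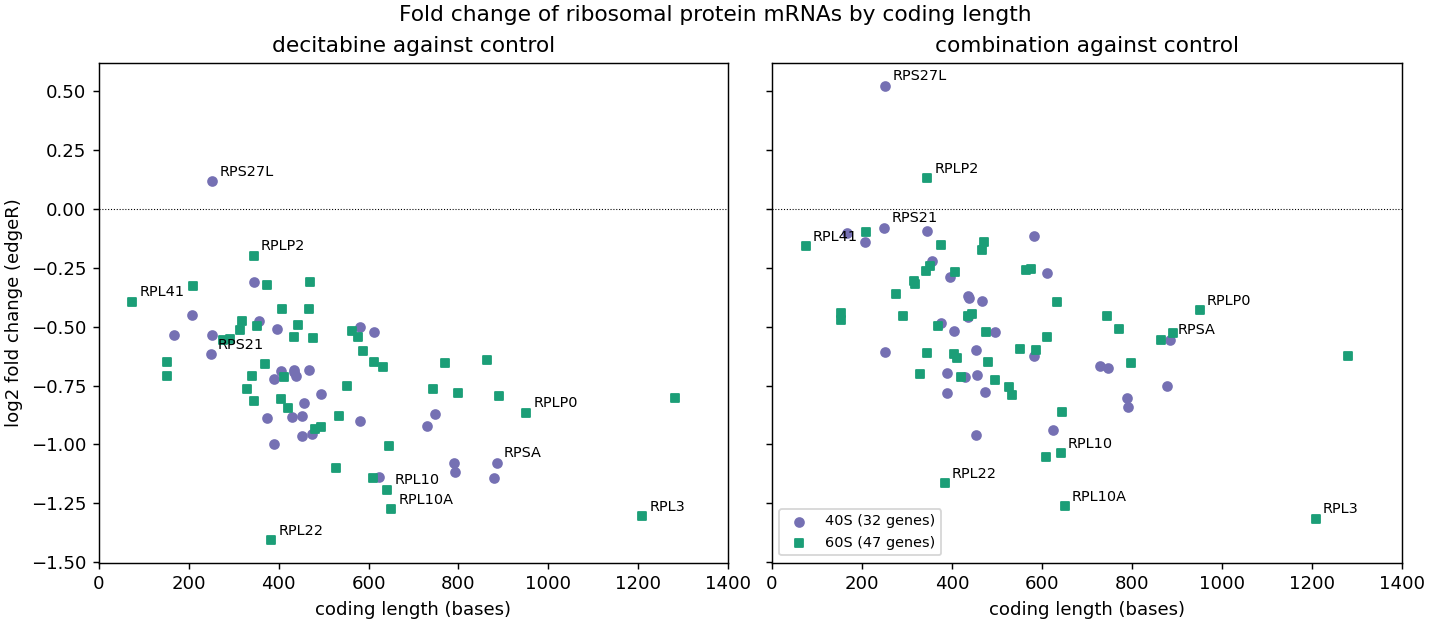
Log2 fold change (vertical axis, edgeR) against coding length in bases (horizontal axis) for 79 ribosomal protein genes, under decitabine (left) and the combination treatment (right), both against the same controls. Each point is a gene, circles are 40S and squares 60S members. Long members lie lower on average, and RPL22 lies far below others of its length.

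Pseudogenes of the members took 0.0466% to 0.0627% of all counts. Of 1587 named pseudogenes, 44 were tested, of which 15 (34.1%) were higher and 14 (31.8%) lower under decitabine, against 36.3% and 32.5% of all genes, and their median log2 fold change was -0.0091. With the counts of each member summed with those of its pseudogenes, 77, 64 and 14 members were downregulated under decitabine, downregulated under the combination treatment and higher between the treatments, as without them. RPLP0P2 on chromosome 11 had 82.2, 126 and 114 counts in the controls, 622, 797 and 870 under decitabine and 446, 542 and 782 under the combination treatment. It was upregulated by 2.60 ± 0.24 (SE, log2; adjusted p = 6.6e-06) while RPLP0 fell. RPLP0P2 was chosen after its values were seen.

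The rest of the translation machinery was described by gene lists, with counts of calls and medians. For all genes, the shares to set beside these counts were 32.5% lower and 36.3% higher under decitabine, 31.3% and 35.9% under the combination treatment, and 8.02% and 7.67% between the treatments. The medians of all genes were 0.035, 0.048 and 0.0021 on the log2 scale. The 17 elongation factor and other genes whose mRNAs are known to begin with a pyrimidine run (EEF1A1, EEF2 and TPT1 are of this kind) were all downregulated under decitabine (median -0.93 on the log2 scale) and under the combination treatment (median -0.83). None of the 17 was called between the treatments by edgeR. An unadjusted p under 0.05 was found for 3 of them, against 5836 of all 18532 genes. HNRNPA1, an RNA-binding protein of splicing, fell by 1.20 ± 0.10 and 1.29 ± 0.10 (SE, log2; adjusted p = 1.34e-07 and 7.04e-08). BTF3, part of the nascent chain complex, fell by 1.17 ± 0.09 under decitabine (SE, log2; adjusted p = 6.48e-08), and EIF3F by 1.06 ± 0.09 under the combination treatment (SE, log2; adjusted p = 1.96e-07). The list took 2.03% ± 0.0391 (SD, n = 3) of all counts in the controls, 1.27% ± 0.0463 under decitabine and 1.28% ± 0.0628 under the combination treatment.

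Of 13 host genes of small nucleolar RNAs without a coding product, 12 were downregulated with each treatment, with medians of -0.70 and -0.48, and 5 were higher under the combination treatment than under decitabine. SNHG29 fell by 1.13 ± 0.08 (SE, log2; adjusted p = 1.54e-08) and SNHG5 by 1.09 ± 0.13 (SE, log2; adjusted p = 3.91e-06) under decitabine, and GAS5, known to accumulate in arrested cells, fell by 1.08 ± 0.10 (SE, log2; adjusted p = 4.7e-07) under the combination treatment. Of 26 translation initiation factors, 18 were downregulated under decitabine and 19 under the combination treatment, with medians of -0.25 and -0.32, and EIF3L fell by 1.17 ± 0.07 and 1.12 ± 0.07 (SE, log2; adjusted p = 5.37e-09 and 7.77e-09). Of 60 ribosome biogenesis factors, 41 were downregulated and 8 upregulated under decitabine, and 33 and 7 under the combination treatment, with medians of -0.29 and -0.26. FBL, the methyltransferase of ribosomal RNA, fell by 1.09 ± 0.08 under decitabine (SE, log2; adjusted p = 1.79e-08) and was higher by 0.36 ± 0.07 between the treatments (SE, log2; adjusted p = 0.00673). NPM1, a nucleolar chaperone, fell by 0.95 ± 0.09 under the combination treatment (SE, log2; adjusted p = 7.08e-07). The 15 genes of the RNA polymerase I machinery, which transcribes ribosomal RNA, had 8 downregulated and 1 upregulated under decitabine (median -0.21) and 2 (13.3%) and 3 (20%) under the combination treatment (median -0.032), both below the shares of all genes. POLR1E fell by 0.49 ± 0.07 under decitabine (SE, log2; adjusted p = 1.23e-05), and TAF1B fell by 0.67 ± 0.09 under the combination treatment (SE, log2; adjusted p = 1.57e-05). TAF1A was higher by 0.48 ± 0.08 under the combination treatment (SE, log2; adjusted p = 9.28e-05).

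Of 6 ribosomal proteins whose symbols lie outside the pattern, 4 were downregulated under decitabine and 2 under the combination treatment, with medians of -0.20 and -0.082. The latter count is 33.3%, against 31.3% of all genes. FAU, the precursor of a 40S protein, fell by 0.46 ± 0.14 (SE, log2; adjusted p = 0.0111) under decitabine. RPL22L1, the paralog of RPL22, fell by 0.43 ± 0.10 and 0.41 ± 0.10 (SE, log2; adjusted p = 0.00171 and 0.0023). The 78 mitochondrial ribosomal proteins, which serve the other ribosome of the cell, had 66 downregulated and 3 upregulated under decitabine (median -0.67) and 60 and 7 under the combination treatment (median -0.57). Between the treatments 18 of them were higher and 2 lower, with a median of 0.13. Under decitabine the middle 50% of their log2 fold changes ran from -0.995 to -0.37, and that of the 80 cytosolic members tested from -0.88 to -0.53. Whether the lists differed from the members was not tested.

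**Figure D5:**
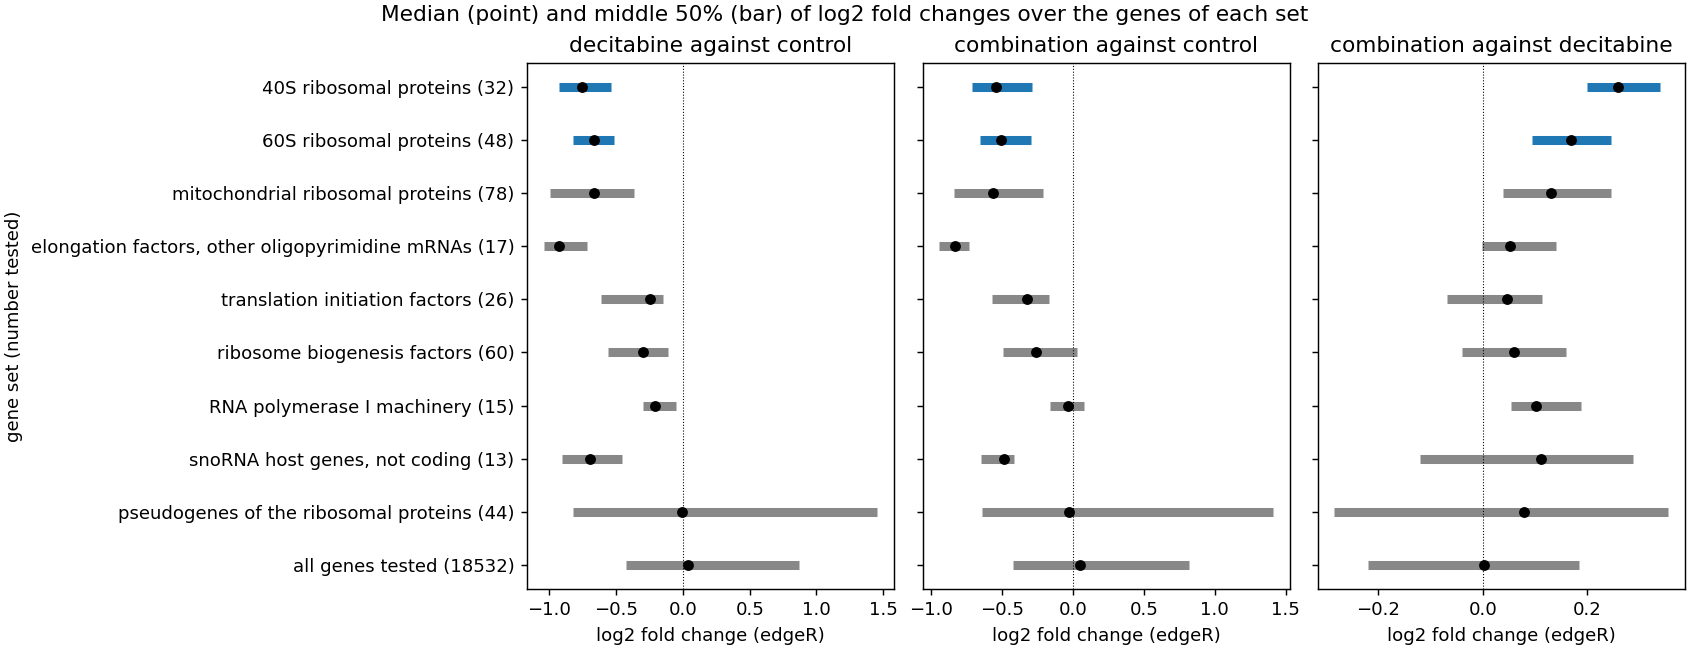
Log2 fold change (horizontal axes, edgeR) in the 3 comparisons for the 40S and 60S ribosomal proteins, 7 related gene sets and all 18532 genes tested. Points are medians and bars the middle 50% of the genes of a set, with the number tested in brackets. The ribosomal protein medians are -0.75 and -0.67 under decitabine, -0.54 and -0.50 under the combination treatment and 0.26 and 0.17 between the treatments, while those of all genes are near 0.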

How the data were processed

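RNA of 9 PC-3 libraries was sequenced on a BGISEQ-500. Per the paper, the authors removed low-quality reads with TrimGalore and counted the rest with kallisto. The submitters' processing notes name the build GRCh38.p13, and the annotation release is not given in the sources used here. The deposited values used are estimated counts per Ensembl gene, with decimals and not normalized. The deposited log2 CPM values were not used. Of 60617 identifiers, 60357 matched GENCODE release 44, which gave symbols and positions.

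Counts were rounded and tested with edgeR 4.0.16 in R 4.3.3: filterByExpr (18532 genes), TMM, robust quasi-likelihood test, 1 mean per group over all 9 libraries, Benjamini-Hochberg adjustment over all genes tested, threshold 0.05. Errors of log2 fold changes are SE from this fit. CPM values are scaled by TMM. A gene at 0 counts in a group was set to a floor of 3 counts over the group. Named members were the 4 paralogs and their counterparts, RPLP0, RPLP1, RPLP2, RPSA, RPL5, RPL11, RPS6, RPS4X, RPS27A, and in each comparison the 4 largest rises and falls among calls whose groups did not overlap and averaged 50 counts or more in one of them. In each gene list the 2 largest changes called were eligible. RPL41 was named in addition. The members and lists were chosen with earlier results of these data known, and the mitochondrial ribosomal proteins were added after the data were seen.

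Alternatives were DESeq2 1.42.0 or its size factors, scaling by library size only, voom with limma 3.58.1, a filter at 10 counts on average or none, a fit on 6 libraries, a replicate block, an absolute log2 fold change above 0.5, counts summed with pseudogenes, other denominators or lengths, and leaving out each library. Pairs of libraries within a group differed by 5.86 to 23.5 in chi-square per degree of freedom over genes with at least 20 counts, so none was a copy. The fit was tested on simulated data. Canonical transcripts can be longer than those expressed, which limits levels per kilobase. 1 member is counted but not reported here by name, and 2 marker genes are not reported here.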

Additional observations from a re-analysis of the deposited data

How the results depend on the processing

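The medians over the members kept their sign in all 3 comparisons under every setting tried. With library size as the only scaling, the median log2 fold change was -0.46 under decitabine and -0.30 under the combination treatment, and 2 members were called higher under decitabine. Under an absolute log2 fold change above 0.5, 42 members were lower under the combination treatment, and 2 were higher between the treatments. That last count was 36 with no filter on low counts and 24 with the replicate block, against 14. With 1 library left out it ranged from 2 to 52 and held between 2 and 14 of these 14. The cause was not tested. The other counts ranged, with 1 library left out, from 77 to 78 lower under decitabine and from 58 to 72 under the combination treatment. Apart from library size as the only scaling, the shares of all genes called under these settings are not given here. A change in these counts was therefore not told apart from a change in the calls of all genes. In the same runs the medians ranged from -0.78 to -0.68, from -0.61 to -0.43 and from 0.13 to 0.30, and the shares of counts from 5.67% to 5.98% in the controls, 3.96% to 4.02% under decitabine and 4.31% to 4.77% under the combination treatment. Without mitochondrially encoded genes in the total the decitabine share was 4.07%.

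Library size alone turned RPLP2 under decitabine to 0.049, RPS21 under the combination treatment to 0.14 and RPL10A between the treatments to -0.012. Between the treatments, leaving out 1 library gave RPL3 -0.088 to 0.068, RPL10A -0.059 to 0.070, and RPL10L -0.0077 to 0.19. None of the values that turned had passed the threshold. Merged exon lengths moved 11 of 12 shares of the paralog pairs. With these included, 1009 of 1092 values of single genes kept direction and call. Same-numbered libraries correlated in their deviations from the group means by -0.03 to 0.29, above 0.1 in 3 of 9 pairs, and 3 of 9 libraries correlated best with their own number in both other groups, so the numbers were not read as pairs. Over the members alone, the 3 such correlations between the treatments were 0.21 to 0.47, and the 6 with the controls -0.60 to 0.033. The replicate block moved no other count by more than 1.5 times. At 3 libraries a group, 1 library can decide the comparison of the treatments.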
